A study of Drosophila melanogaster with 4 samples.

Results

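Stretches of the Drosophila melanogaster genome in which Dam-Pr-set7 summits lay close together, here called runs, are described by locus and by gene. The summits of both Dam-Pr-set7 samples on arms 2L, 2R, 3L, 3R, 4 and X were pooled, summits within 500 bp were merged into 1, and a run was a stretch of 4 or more merged summits with each step to the next of at most 5000 bp. This gave 97 runs with 463 of 5122 merged summits (9.04%), made from 230 of 2856 summits of replicate 1 (8.05%) and 395 of 4240 of replicate 2 (9.32%). The runs were chosen by the summit positions of both samples. Run number, spacing, density and the finding of a summit in both samples are therefore given as descriptions, and so are all comparisons of run summits with the other merged summits, since 2 samples of 1 group allow no test over samples. The differences between run summits and the rest were not tested.

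The series holds 4 samples, 2 with UAS-Dam and 2 with UAS-Dam-Pr-set7, the latter from the construct pUASTattB-LT3-NDam-Pr-set7, all under grh-Gal4, which the submitters describe as a driver for neural stem cells (NSCs). Eggs from a window of 6 h were kept at 25 °C until hatching, and larvae were dissected after 24 h at 29 °C. Per the series' design text, the work was done in 2 batches, with 1 Dam and 1 Dam-Pr-set7 sample in each, and therefore a replicate and its batch cannot be told apart. The Dam samples were not analysed here, so no run is compared with the background of free Dam, and the sources used here do not say whether samples came from separate groups of animals or whether cells were sorted.

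Targeted DamID ties the bacterial adenine methylase Dam to a protein of interest, so that GATC sites near the places the protein visits become methylated. Pr-set7 (SETD8) is the methyltransferase that puts a single methyl group on lysine 20 of histone H4, a mark linked to mitosis, chromosome compaction and genome stability. Quiescent NSCs of the early larva re-enter the cell cycle after hatching, and the study title places Pr-set7 in that step. A summit is the highest point of a called peak, and its height is the number of fragments piled up there. The files held 2876 and 4281 summits with median heights of 42 fragments (range 12 to 279) in replicate 1 and 37 (range 11 to 204) in replicate 2. Heights are not scaled to depth, which is unknown, so they rank summits within a sample.

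Most runs were short. There were 50 runs of 4 merged summits, 33 of 5, 8 of 6, 1 of 7, 4 of 8 and 1 of 11. The median span was 7891 bp (2178 to 27043 bp), and the runs covered 811 kb together. Steps within runs had a median of 2028.5 bp over 366 steps, with 514 bp as the shortest and 4980 bp as the longest. The median of all 5116 steps on the arms was 12916.5 bp, and 1378 of them (26.9%) were 5000 bp or less. At the edge of the rule, 8 of the 50 runs of 4 had a step over 4500 bp, the shortest step past the limit that adjoined a run was 5114 bp, and 5 of the 166 stretches of 3 had a further summit within 5500 bp.

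**Figure D1:**
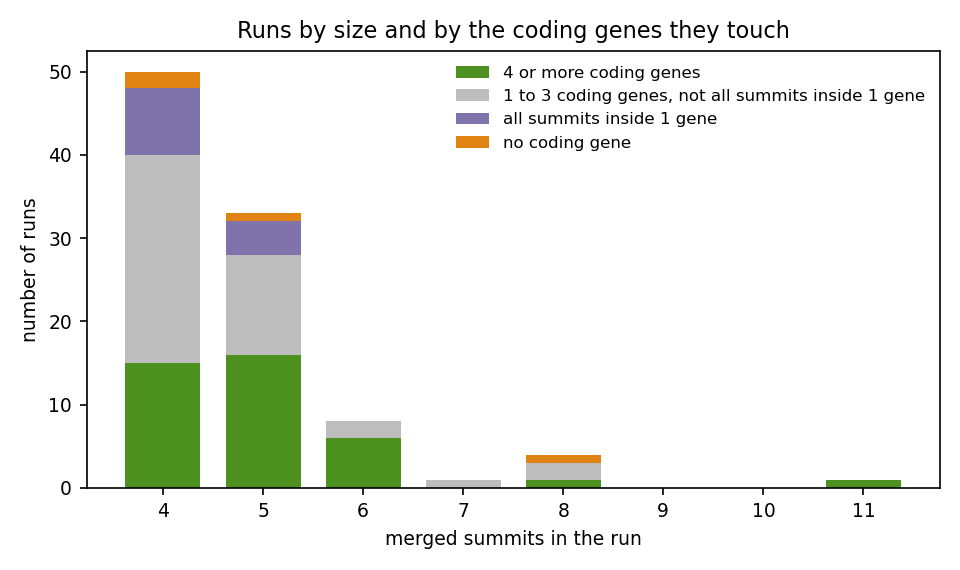
Number of runs (vertical axis) by the number of merged summits in the run (horizontal axis), stacked by the protein-coding genes the run touches. Of the 97 runs, 39 touched 4 or more genes, 12 had every summit inside 1 gene, 4 touched no coding gene and the remaining 42 touched 1 to 3 genes.

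The runs were sorted into kinds by the protein-coding genes they touched. Gene-dense runs, touching 4 or more protein-coding genes, numbered 39 with 195 merged summits, and 162 of their summits (83.1%) lay within 1000 bp of a gene end. Single-gene runs, with every summit inside 1 gene, numbered 12 with 52 summits, of which 6 (11.5%) lay that close to an end. The remaining 42 runs had 195 summits, 98 of them (50.3%) within 1000 bp of an end. Because gene layout defines the kinds, the differences between these shares largely follow from the sorting. Of the 97 runs, 4 touched no protein-coding gene, and no share for other stretches of like span was computed. Median heights were 44 fragments in gene-dense, 46 in single-gene and 43.5 in the remaining runs in replicate 1, and 46, 41 and 35 in replicate 2.

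In all, 313 of 13922 protein-coding genes touched a run between its outermost summits. That is 2.25% of the genes, the background for every count of protein-coding genes below. With a run summit inside the gene or within 1000 bp of an end as the criterion it was 358 genes (2.57%). A run touched 3 coding genes at the median and 9 at most. With genes cut into 5 length classes of near equal number, the share was 1.39% in the shortest class (median length 725 bp), 2.88% in the next and 2.62% in the longest (14627 bp). Genes touching a run had a median length of 2192 bp, against 2163 bp for all coding genes. Noncoding genes touching a run numbered 41, among them 18 long noncoding RNAs, 11 antisense RNAs and 8 small nucleolar RNAs. The share over all noncoding genes was not computed, so these counts have no background and are a listing only.

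The homeotic genes, which set segment identity along the body axis and in NSCs of the nerve cord, held several of the largest runs. Antp, the Antennapedia gene, carried a run of 8 merged summits over 15281 bp (3R, 6986720 to 7002001, dm6; Antp spans 6896253 to 6999228). The highest of them, 135 fragments at 6999366 (replicate 1) and 106 at 6999341 (replicate 2), lay 126 bp beyond the end of the gene. The summits on either side of it were also found in both replicates, with 45 and 30 fragments (replicates 1 and 2) at 6996572 and 63 and 57 at 7002001. All other summits of this run belonged to 1 replicate. At 6992592 replicate 1 had 72 fragments, and 647 bp away at 6991945 replicate 2 had 97, too far apart to be merged. Replicate 2 alone had 47 fragments at 6986720, 24 at 6987342 and 15 at 6993249. The Antp run was one of 6 that contained a run of 4 or more in each replicate taken alone.

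The bithorax complex, which holds Ubx, abd-A and Abd-B, had 4 runs within 136 kb, with 25 merged summits. Replicate 2 had a summit at 24 of the 25 and replicate 1 at 6, and 5 were found in both. Inside Ubx (3R, 16656623 to 16734426), 5 summits lay between 16696736 and 16707622. Replicate 2 gave 17, 39, 20, 19 and 49 fragments there, and replicate 1 gave 47 at the last of them alone. At the upper end of Ubx a run of 4 (16728177 to 16736358) reached beyond the gene, with its highest summit at 16736358 (65 and 69 fragments in replicates 1 and 2). This was the 1 run in the complex that was no longer found when summits were merged within 1000 bp, and it was not met by a run in either replicate alone.

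The run over lncRNA:bxd, a long noncoding RNA gene of the regulatory DNA upstream of Ubx (16742125 to 16773189), had 8 merged summits from 16763968 to 16778195, and every one came from replicate 2. Their heights were 15, 14, 19, 14, 52, 21, 19 and 29 fragments. Apart from the summit with 52 fragments at 16770031, they were low for that sample, and the run's median of 19 fragments stood at percentile 16.0, the lowest of the 97 runs on the mean of the replicate percentiles. At abd-A (16807214 to 16830049) a further run of 8 went from 16816984 to 16832772 and ended in MSAmiP. Replicate 1 had 24, 59 and 25 fragments at 16816984, 16819492 and 16832772, where replicate 2 had 31, 47 and 63. The highest summit of this run, 90 fragments at 16828355, was found in replicate 2 only. Across the 316 kb from Ubx to Abd-B there were 49 merged summits, 15.5 per 100 kb against 3.84 per 100 kb over the arms, of which 25 were in runs. Replicate 1 had a summit at 17 of the 49 and replicate 2 at 46. By the same measure there were 8.88 merged summits per 100 kb over the Antennapedia complex, with 6 of its 30 in runs. It was 10.8 from ara to mirr in the iroquois complex and 18.0 from ci to pan on chromosome 4. All these loci hold runs, and closeness of summits enters the rule itself.

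The homeobox gene mirr, of the iroquois complex, had a run of 7 over 14742 bp (3L, 12685696 to 12700438). Its highest summit, inside the gene, reached 146 fragments in replicate 1 and 160 in replicate 2. Outside the gene, 49 and 38 fragments were found 2669 bp from its end and 28 and 32 at 7943 bp. The other 4 summits came from replicate 2, with 25 to 42 fragments. The neighbouring iroquois genes ara and caup touched no run, and 7 of the 14 merged summits from ara to mirr were outside runs.

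**Figure D2:**
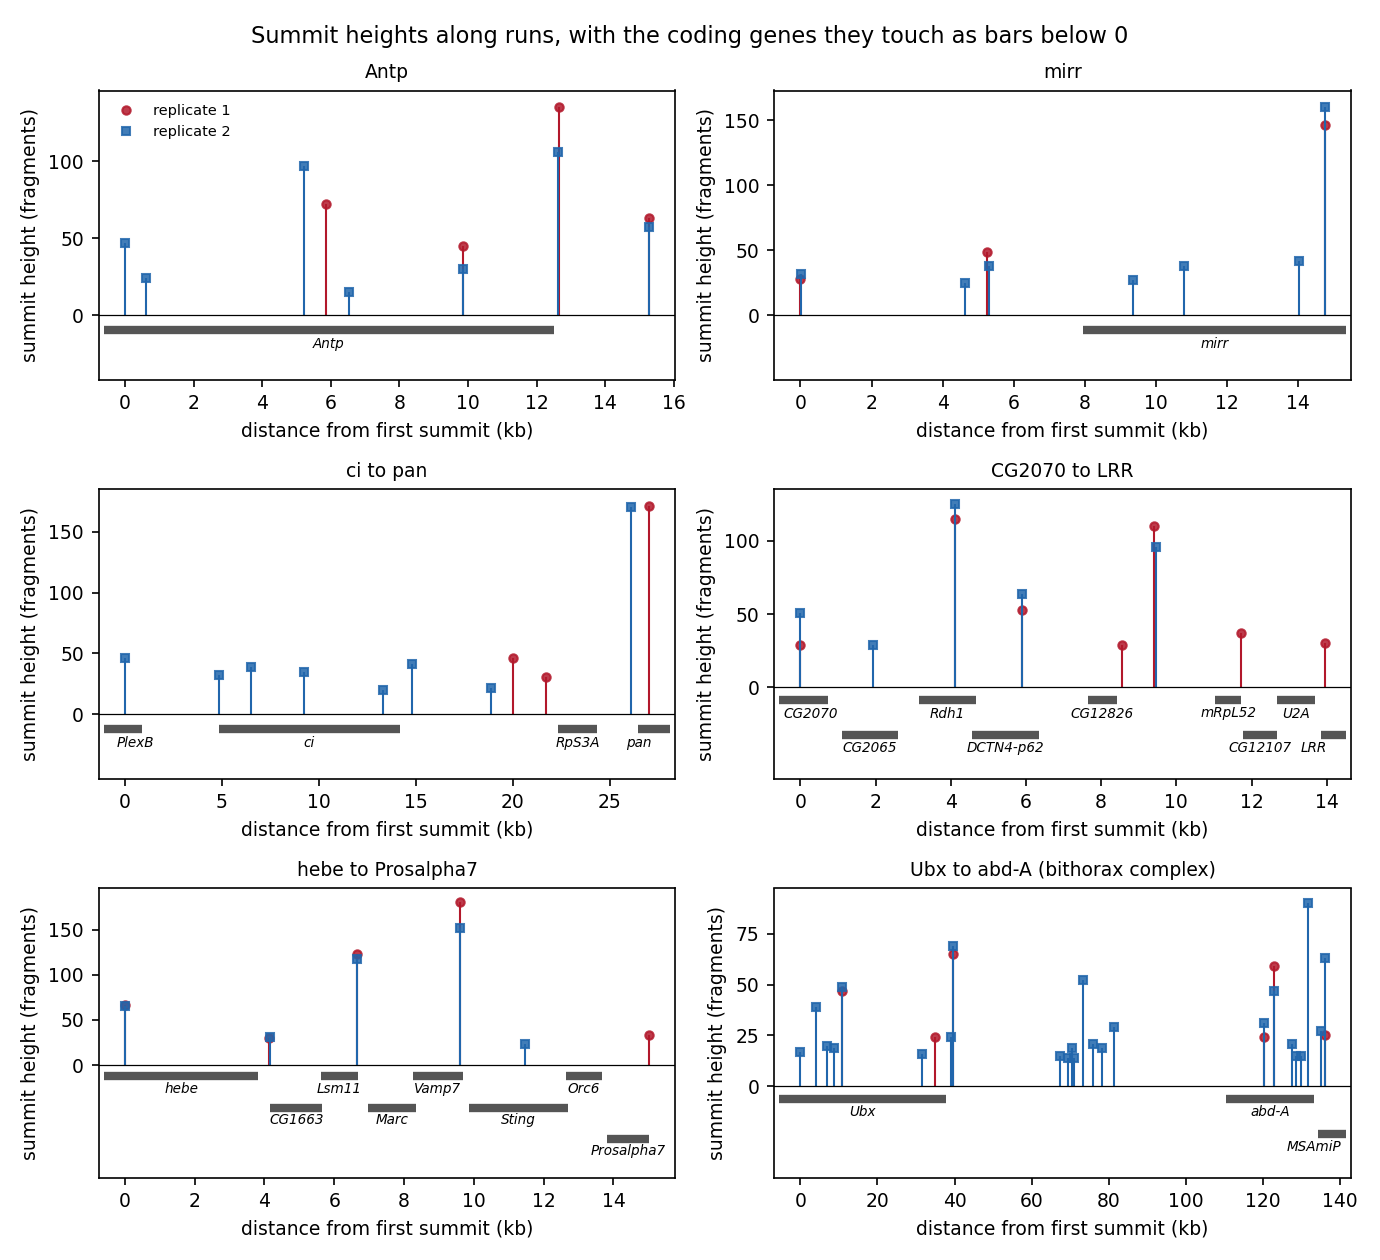
Height of each summit in fragments (vertical axis) against its distance in kb from the first summit of the locus (horizontal axis), for replicate 1 (red circles) and replicate 2 (blue squares), with the protein-coding genes that touch the runs as grey bars clipped at the panel edge. At mirr 1 summit found in both replicates stands above the rest. At Antp such a summit is also the highest, in replicate 2 by a small margin. At ci to pan the replicates share no position, and in the bithorax complex replicate 2 has 24 of the 25 summits.

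The largest run lay on the small chromosome 4, with 11 merged summits over 27043 bp (42877 to 69920). It passed from PlexB, a plexin receptor gene, over ci, the transcription factor of Hedgehog signalling, and the ribosomal protein gene RpS3A to the end of pan, the TCF factor of Wingless signalling. Replicate 2 gave 8 of the summits and replicate 1 gave 3, and none was found in both within 500 bp. Replicate 2 had 32, 39, 35 and 20 fragments at the 4 summits inside ci. At the pan end the replicates came close, with 170 fragments at 69002 in replicate 2 and 171 at 69920 in replicate 1. These heights were the top of the run in each sample, and the positions were 918 bp apart. A further pair of runs on chromosome 4 was named after its values were seen. One had 5 summits between 145245 and 155776, with the highest, 110 fragments in replicate 1, inside CG31997. The other had 4 summits inside apolpp, the apolipophorin gene, of which 1 was found in both (39 and 35 fragments).

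By arm, chromosome 4 had the highest share of its merged summits in runs and X the lowest. It was 20 of 96 on chromosome 4 (20.8%, 95% exact interval 13.2 to 30.3%) and 20 of 658 on X (3.04%, 1.87 to 4.66%). On 2L, 2R, 3L and 3R it was 10.6%, 9.01%, 7.88% and 11.0%. How closely summits lie on an arm enters the rule itself. There were 72.8 merged summits per Mb on chromosome 4 and 28.2 on X, the highest and the lowest of the arms. The 4 large autosomal arms lay between at 37.2 to 43.3, and 3R had the highest share of them in runs at 39.0 per Mb, below 2L (43.3) and 2R (42.1). In runs on chromosome 4, 2 of 20 merged summits were found in both replicates, against 26.3% of those outside runs. On X it was 10 of 20 in runs and 37.5% outside.

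**Figure D3:**
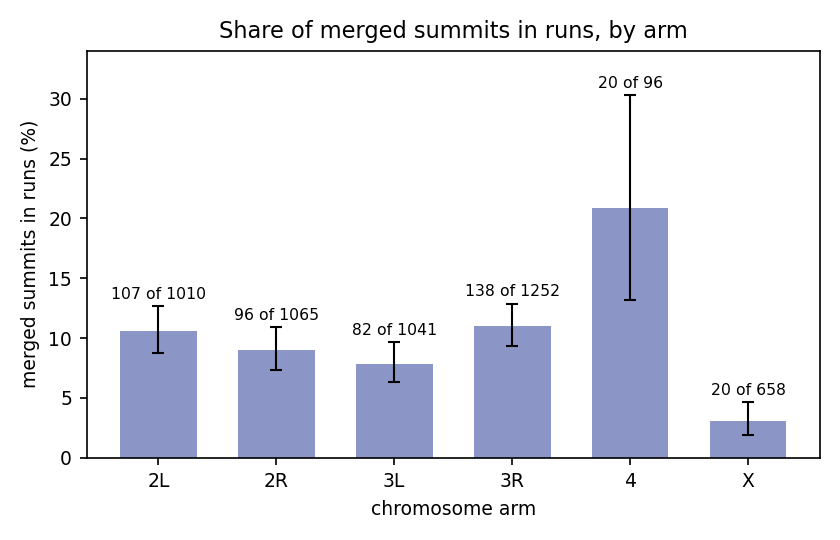
Share of merged summits that belong to a run (vertical axis, %) for each chromosome arm (horizontal axis), with exact 95% intervals for counting error and the counts above the bars. Chromosome 4 stands highest with 20 of 96 and X lowest with 20 of 658.

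By the count of genes touched, the chromosome 4 run above is also gene-dense, with 4 coding genes. The gene-dense run with the next most summits was a run of 8 on 2R (7662681 to 7676629) that touched 9 genes from CG2070 to LRR, with 7 of its summits within 1000 bp of a gene end. These included Rdh1, a retinol dehydrogenase gene, DCTN4-p62 of the dynactin complex, the splicing factor gene U2A and mRpL52 of the mitochondrial ribosome. Inside Rdh1, 460 bp from the end of DCTN4-p62, the replicates had 115 and 125 fragments 10 bp apart. Inside DCTN4-p62 they had 53 and 64, and 1009 bp from CG12826 they had 110 and 96. Replicate 1 alone gave 29, 37 and 30 fragments near CG12826, mRpL52 and LRR, and replicate 2 alone gave 29 inside CG2065. This run was met again under each of the 5 settings that were checked run by run, a trait shared by 1 other run, that of crp (below). These were merging within 1000 bp, steps of at most 3000 bp, summits above the median height and either replicate alone.

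Another gene-dense run on 2R (9832820 to 9847846, 6 summits over 15026 bp) touched 8 genes, with 4 of the summits within 1000 bp of an end. They include Lsm11, part of the machinery that makes histone mRNA ends, Vamp7, a vesicle fusion protein gene, Sting, of innate immunity, and Orc6, a subunit of the origin recognition complex. The highest summit lay inside Vamp7, 73 bp from its end, with 181 fragments in replicate 1 and 152 in replicate 2. The next was 27 bp inside Lsm11 with 123 and 117. Within Orc6 itself there was no summit. The closest were one of 23 fragments in Sting, 1171 bp from Orc6, and one of 33 fragments 10 bp from Prosalpha7, a proteasome subunit gene, each in 1 replicate.

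On 3L a run of 6 (263425 to 277464) went over 8 genes from Tudor-SN to RhoGEF3, including the pleiotrophin-like growth factor genes miple1 and miple2. Of its summits, 3 were found in both replicates. They had 115 and 146 fragments inside Tudor-SN, 68 and 66 inside miple1 and 149 and 171 at 57 bp outside ttm2. Replicate 1 alone had 140 fragments at 19 bp from CG34263, inside mRpL17. A run of 6 on 2L (4453212 to 4464295) was led by a summit 73 bp outside Secp43 with 182 and 156 fragments, and also touched RpL27A, mRpL27 and ND-B8, genes of the ribosomes and of respiratory complex I. A further run of 6 lay at ArfGAP3, CG11367 and mael, the gene of the piRNA factor Maelstrom (3L, 22716678 to 22728710). Heights were 18 to 38 fragments in replicate 1 and 17 to 38 in replicate 2. Most were low, but the highest stood at percentiles 44.8 (replicate 1) and 51.7 (replicate 2). Each replicate alone also formed a run there.

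By height, the run from PQBP1 to CG11920 on 3R (25065750 to 25075976) came first, with median percentiles of 92.0 in replicate 1 and 92.6 in replicate 2. It also covers Stt3B, which encodes the catalytic subunit of an oligosaccharyltransferase. Summits in both replicates reached 127 and 150 fragments at the end of CG11839 and 147 and 152 inside CG11920. The first pair lay at 25069908 (replicate 1) and 25069953 (replicate 2), on either side of the gene end at 25069927. Their mean position was 3 bp inside the gene. Second was the shortest run, 4 summits over 2178 bp on 3R (7090636 to 7092814) between alphaTub84B, an alpha-tubulin gene, and e(y)2b, touching no coding gene. There, replicate 1 had 122 and 109 fragments and replicate 2 had 109, 32 and 139. The next by height were the Tudor-SN run, a run at the heterochromatic gene lt and one at mia, Pcmt and Snm1 (3R, 5549354 to 5555752). The last of these had 94 and 77 fragments at 83 bp from Pcmt and 70 and 125 inside Snm1.

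By spacing, the densest run of 5 or more lay at Cad96Ca, a cadherin-family kinase gene, and CG13654 (3R, 25196602 to 25202383), with 6 summits at a mean step of 1156 bp. Heights were 18 to 28 fragments in replicate 1 and 25 to 39 in replicate 2. The next were the runs at mrn, CG12301 and AIMP2 (3L, mean step 1424 bp), at YL-1, abo, ATPsynG and SCAR (2L, 1530 bp), at CG13097, PIG-U, mRpL51 and Uba4 (2L, 1568 bp) and at Ankrd49, NC2beta, THG and Rnmt (2L, 1665 bp). The PIG-U run, with 15 to 61 fragments, was one of 4 runs made up of replicate 2 summits alone, as was that of lncRNA:bxd. At the mrn run the top summit had 66 fragments in replicate 1 and 94 in replicate 2, at 124 bp outside CG12301.

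Near the telomeres and the pericentric regions there were further runs. At mthl8 on 3L, 6 summits lay between 23368 and 33187, and the 3 found in both replicates were all outside coding genes, with 143 and 83 fragments at 27672 and 94 and 104 at 32626. At lt, the light gene known for its place in pericentric heterochromatin of 2L, 4 of 5 summits lay outside the gene (22917975 to 22925590). The summit inside it had 134 and 142 fragments, and the farthest one, 6820 bp away, had 114 and 93.

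Among the single-gene runs, nmo and Ubx fall under the rule for naming, and the other hosts were named after their values were seen. The 12 host genes had a median length of 40382 bp. They were Dif, CadN, stw, atos, Sema2b, nmo, puc, Ubx, CG42613, gukh, apolpp and Prp16. In nmo, which encodes the Nemo kinase, 3 of 4 summits were found in both replicates, with 113 and 96 fragments at the highest, 17875 bp from the nearest gene end. In puc, the phosphatase gene of the JNK pathway, the highest had 122 and 104 fragments at 8114188. In Sema2b, a semaphorin gene, 1 summit had 102 and 104 fragments while the other 4 ranged from 17 to 49 and came from 1 replicate each. At crp, likewise named after its values were seen, the run reached 226 bp beyond the gene (2L, 16282542 to 16287956) and every one of the 4 summits was found in both replicates, with 70, 93, 35 and 47 fragments in replicate 1 and 110, 113, 75 and 46 in replicate 2. No other run had that.

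Cdk1, the mitotic kinase, touched a run of 4 on 2L (10385804 to 10388362) that also took in mRpS7 and the end of da, a bHLH factor gene. Replicate 1 had 42 fragments inside Cdk1 and 75 inside da. Replicate 2 had 73 at 181 bp outside Cdk1 and 38 at 108 bp outside mRpS7. No position was shared within 500 bp. The replicates' summits were 639 and 602 bp apart, and with merging within 1000 bp the run was no longer found. None of the other 10 genes followed whatever their values touched a run. These are the Wingless genes wg, arm and ebd1, the cell cycle genes E2f1, stg and CycE, the neural stem cell genes dpn and grh, InR, the insulin receptor gene, and Set8, the gene of Pr-set7. The closest to a run summit was InR, 314920 bp away, although 4 merged summits lay in or within 1000 bp of InR.

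Of 306 genes in 18 lists, 10 touched a run (3.27%, against 2.25% of all coding genes). In the Wnt/Wingless list 3 of 33 did, pan, nmo and gish, a casein kinase gene whose run also took in asun and Mat89Ba and had 121 and 124 fragments inside gish. The cell cycle list had Cdk1 (1 of 34) and the quiescence list Antp (1 of 26). The bithorax complex had 2 of 3, the Antennapedia complex 1 of 10 and the iroquois complex 1 of 3. In 11 lists no gene touched a run, among them stem cell identity (21 genes), temporal factors (23), histone methylation with Polycomb and trithorax genes (34) and markers of neurons, glia, muscle and of epidermis and trachea (57 genes together). With so few genes per list these shares rest on 1 to 3 genes each.

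Set beside the 4659 merged summits outside runs, run summits lay nearer to gene ends. Within 1000 bp of an end were 267 of 463 (57.7%, 95% exact interval 53.0 to 62.2%) and 2224 outside runs (47.7%, 46.3 to 49.2%). Medians of the distance were 749 and 1118 bp. Run summits had 3 coding genes touching the 10000 bp around them at the median, against 2. Inside gene spans were 74.5% in runs and 68.9% outside, and the longest gene holding such a summit had a median of 5914 bp in runs and 12421 bp outside. By sample, summits in the pooled runs lay that near an end in 59.1% (52.5 to 65.5%) against 53.9% outside in replicate 1. For replicate 2 it was 58.0% against 47.5%. With runs built from 1 sample alone, the difference was seen for replicate 2. For replicate 1 alone the shares were alike. Its interval over 51 summits is wide and includes the replicate 2 share in runs and the shares outside runs of both replicates. In runs built from replicate 1 alone, 27 of 51 summits (52.9%, 38.5 to 67.1%) lay within 1000 bp of an end, against 54.3% of the other replicate 1 summits. In runs built from replicate 2 alone it was 159 of 276 (57.6%, 51.5 to 63.5%) against 47.9%. Stretches of 3, just outside the rule, had 58.8%.

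**Figure D4:**
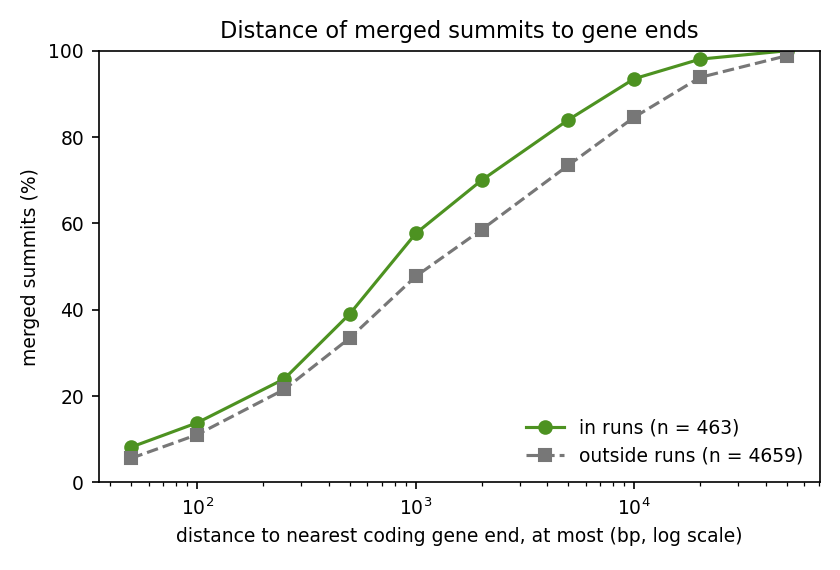
Cumulative share of merged summits (vertical axis, %) within a given distance of the nearest protein-coding gene end (horizontal axis, bp, log scale), for 463 summits in runs (green circles) and 4659 outside runs (grey squares). The run curve is the higher one at every distance drawn, with 57.7% against 47.7% at 1000 bp. Nearer to the end the curves lie closer, with 24.0% against 21.5% at 250 bp.

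Recurrence between replicates is given by summit, and densities by region are set beside it. Of the run summits, 162 (35.0%, 30.6 to 39.5%) were found in both replicates, 68 in replicate 1 only and 233 in replicate 2 only. Outside runs 38.8% were found in both. By arm, the share in runs was above that outside on 2R (41.7 against 38.7%) and X, and below it on the others. Without pooling, 35 of 51 summits in runs of replicate 1 alone (68.6%, 54.1 to 80.9%) had a replicate 2 summit within 500 bp, against 69.1% of the other replicate 1 summits. For runs of replicate 2 alone it was 111 of 276 (40.2%, 34.4 to 46.3%) against 47.0%. As regions, runs built from 1 replicate were dense in the summits of the other. This follows largely from the choice of stretches dense in 1 replicate, since many of its summits were also found in the other. The densities are therefore descriptions and do not measure whether clustering recurs. Within the 12 runs of replicate 1 alone there were 30.7 replicate 2 summits per 100 kb, against 3.18 over the arms (9.66 times). Within the 59 runs of replicate 2 alone there were 19.8 replicate 1 summits per 100 kb, against 2.14 (9.23 times), and 10 of these runs held none. Of the 97 runs, 56 had at least 2 summits found in both, 14 had none and 4 held replicate 2 summits only. Replicate 1 alone formed a run within 12 of the 97 and replicate 2 alone within 59, while 32 needed both samples. Some close summits of unlike replicates stayed unmerged. Of the 110 steps of at most 1000 bp, 27 (24.5%) joined a summit of replicate 1 only to one of replicate 2 only, against 28 of 256 longer steps (10.9%).

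Where a run summit was found in both replicates, position and height went together. The replicates were 19.5 bp apart at the median (22 bp outside runs). Heights had a Spearman rho of 0.85 and a Pearson r of 0.90 over 162 summits, and of 0.89 and 0.90 over 1810 outside runs, where the summits of a sample share 1 library. Median heights over all run summits were 44 fragments in replicate 1 and 38 in replicate 2, against 42 and 36 outside runs. Summits found in both were the higher ones, in runs and outside alike. In runs their medians were 53 and 61 fragments, against 31 and 29 for summits found in 1 replicate, and outside runs 48 and 55 against 33 and 26. Heights within a run were unequal. The highest summit exceeded the lowest 3.36 times at the median in replicate 1 (43 runs with 3 or more summits there) and 3.83 times in replicate 2 (95 runs). The highest of all run summits, 267 and 203 fragments inside galectin on 2L at 73080, was named after its value was seen and shared its run of 4 with summits of 44 to 56 fragments.

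**Figure D5:**
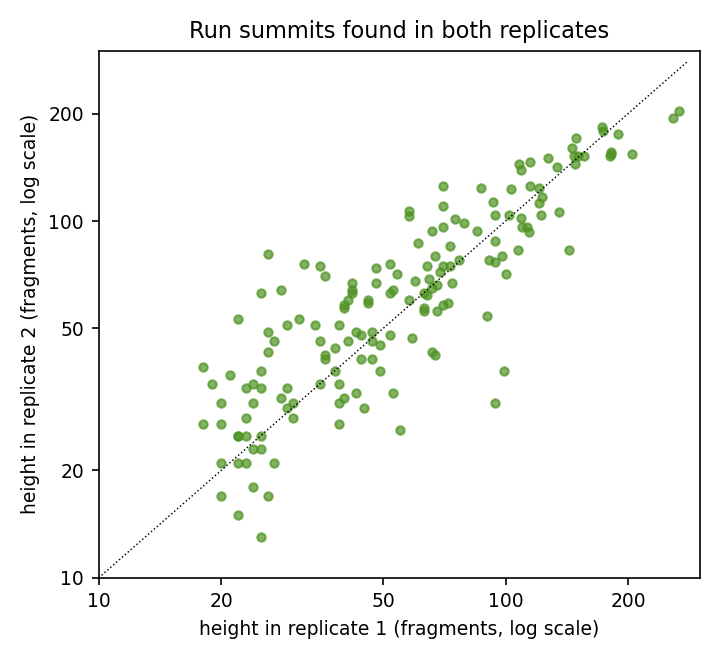
Height in replicate 2 against height in replicate 1 (fragments, both axes on a log scale) for the 162 run summits found in both replicates, with equal heights as a dotted line. The points follow the line over the whole range, with a Spearman rho of 0.85.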

How the data were processed

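Targeted DamID summits of the 2 Dam-Pr-set7 samples were used. The build was dm6 and the tools were MACS 1.4.2, Bowtie2 2.2.6 and bcl2fastq 2.19.0.316, per the submitters' processing notes. The deposited values are 1 bp summit positions and a signal column, which holds the pileup height at the summit in fragments as the authors' peak caller wrote it, with no scaling to depth. Cutoffs, duplicate filters and the control used in peak calling are not given in the sources used here. Peaks were called per sample. Replicate numbers follow the order of deposit.

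Summits of both files were pooled and chained into 1 when within 500 bp, at their mean position. Gene spans came from the RefSeq gene table for Release 6 plus ISO1 MT (dm6). Strand, exons and genome sequence were not used here. A gene touched a run when its span overlapped the stretch from the outermost summits. Intervals are exact Clopper-Pearson 95% intervals and cover counting error only. Precision is limited by the number of summits.

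Runs, gene lists (328 terms, 7 matched by synonym, 6 not found) and the naming rule were chosen with earlier results of these data known. Runs named are the 10 with the most summits, the 5 longest, the 5 densest of 5 or more, the 5 highest by median height percentile, and those with list genes. Of each run at most 6 genes were to be named. Further genes are named where they hold or adjoin a summit given, and 11 genes whatever their place. The planned description of promoter sequence and GATC sites was not run. The counts of 1 gene list and the run it concerns are not reported here. No test was made, as 2 samples of 1 group allow none and the summits chose the runs. Functions were tested on simulated summits. Tools were SciPy 1.17.1, pandas 2.3.3, matplotlib 3.10.9 and numpy 2.4.6 in Python 3.11.15.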

Additional observations from a re-analysis of the deposited data

Results flagged for a closer look

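Summits outside the 6 arms entered no comparison, and they were flagged as signal in data not otherwise used. There were 20 in replicate 1 and 41 in replicate 2, above the 3 that a count of 0 allows. By the same rule they formed 2 further runs, both on 1 unplaced sequence. One had 10 merged summits over 15492 bp, 6 of them found in both replicates, with 21 to 47 fragments in replicate 1 and 14 to 48 in replicate 2. The other had 4 over 7281 bp, 2 of them in both, with 25 to 48 and 22 to 79 fragments.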

How the results depend on the processing

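No paired analysis was possible because the Dam samples of the 2 batches were not analysed here and no result comes from a test. The number of runs follows its limits. It was 97 as reported, 107 with merging within 200 bp and 97 with one-to-one pairs. The numbers of runs, summits in runs and genes touching a run became 43, 196 and 172 with merging within 1000 bp, 40, 174 and 95 with steps of at most 3000 bp, 235, 1238 and 1191 with steps of at most 10000 bp, 263, 961 and 673 for runs of 3 or more, 14, 98 and 66 for runs of 6 or more, and 16, 71 and 58 with summits above the median height. With 1 replicate left out, runs ranged from 12 (replicate 1 alone) to 59 (replicate 2 alone), summits in runs from 51 to 276 and genes from 37 to 183. Of the 97 runs, 6 were met under none of 5 of these settings (merging within 1000 bp, steps of 3000 bp, above the median height, either replicate alone), 40 under 1, 32 under 2, 12 under 3, 5 under 4 and 2 under all. The share found in both replicates moved to 42.9% with merging within 1000 bp and 39.8% with steps of 10000 bp. The share near gene ends moved to 62.2%, 52.3% and 63.4% with merging within 1000 bp, steps of 3000 bp and summits above the median height, and to 39.1% and 70.0% within 500 and 2000 bp. With 1 replicate left out it ranged from 52.9% to 57.6%, and the share inside genes from 68.6% to 75%. The latter was 65.3% in runs of 6 or more. The median height became 72 in replicate 1 and 67 in replicate 2 above the median height, by construction, and in replicate 2 it was 33 with steps of 3000 bp and 34 in runs of 6 or more. With a replicate left out it was 42 in replicate 1 and 38 in replicate 2. The cause of these moves was not tested.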
